A study of Mus musculus with 1376 samples.

Results

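The Efhd1-Sfrp2-Sost cells are a small set of smooth muscle cells (SMC) from mouse lung. They were chosen by a rule on 5 genes. A cell was a member if the muscle myosin gene Myh11 had at least 500 CPM (a cell's counts for a gene scaled to the cell's total) and at least 2 of Efhd1, Sfrp2, Sost and Susd5 had at least 20 CPM. Of 1376 cells, 829 passed the Myh11 threshold and 17.2% of those were members. Of these, 60 came from male 1, 63 from male 2 and 20 from the only female. They were set against the other 686 Myh11 cells. A narrower comparator was the 31% of those 686 with at least 20 CPM in 2 or more of P2rx1, Stac and Kcna5, a second group of lung muscle cells, with 64 cells from male 2, 23 from the female and the rest from male 1. Values per mouse are given in the order male 1, male 2, female.

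All cells came from ACTA2GFP:CSPG4dsRED mice, whose strain name gives fluorescent reporters under smooth muscle actin and NG2, with no treatment named. They were sorted singly into 384-well plates and sequenced by Smart-Seq2, which reads full-length cDNA without molecular identifiers. The sources used here do not give the gate. The sample labels give 8 to 30 weeks of age and lung as the tissue, whereas the series text gives 8 to 21 weeks and males only, and the protocol text names heart. Male 1 fills plates 045s and 046s and each other mouse fills 1 plate, so mouse and plate cannot be told apart, and sex cannot be told apart from the single female mouse.

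SMC of the lung wrap arteries, veins and airways. Arterial and venous SMC contract through actin and myosin, keep their identity in part through Notch signals from the endothelium, and lay down the elastic fibres that let vessels recoil. Sfrp2 encodes a secreted protein that binds Wnt ligands. Sost encodes sclerostin, a secreted inhibitor of Wnt co-receptors best known from bone. Efhd1 encodes a calcium-binding protein of mitochondria, and Susd5 a sushi-domain membrane protein.

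The start sites of the 4 choosing genes are shown because these genes define the cells. The 130 bases before each start were taken from RefSeq (GRCm38.p6), each on the strand of its gene, and capitals mark the letters TAAAAA.
Efhd1, chr1:87264223-87264352, plus strand: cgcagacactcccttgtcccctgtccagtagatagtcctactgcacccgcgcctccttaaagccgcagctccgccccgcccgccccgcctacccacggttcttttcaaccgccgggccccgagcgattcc
Sfrp2, chr3:83766191-83766320, plus strand: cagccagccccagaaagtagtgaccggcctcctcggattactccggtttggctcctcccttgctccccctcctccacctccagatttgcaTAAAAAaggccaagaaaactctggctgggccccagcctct
Sost, chr11:101967016-101967145, minus strand: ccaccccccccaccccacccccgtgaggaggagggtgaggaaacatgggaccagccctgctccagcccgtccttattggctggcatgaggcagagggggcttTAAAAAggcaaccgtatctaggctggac
Susd5, chr9:114057224-114057353, plus strand: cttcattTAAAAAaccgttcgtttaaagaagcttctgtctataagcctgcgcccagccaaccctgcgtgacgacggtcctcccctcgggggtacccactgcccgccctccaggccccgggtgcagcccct
The A/T-rich stretch began 28 bases before the start of Sost and 40 bases before that of Sfrp2, which is near where a TATA box lies in many promoters and lay farther upstream in Susd5. TAAAAA was searched after the sequences had been read, and 19.3% of 32851 RefSeq promoters of 300 bases held it on either strand. Searched likewise on both strands of the 300 bases, none of the 4 promoters held TATAAA (13.6% of all promoters), TGGGAA (25.6%) or a CArG box (1.63%); TATAAA and TAAAAA can overlap in 1 stretch. These matches describe letters in a window and say nothing about which factors bind there.

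The 4 choosing genes were seldom all present in 1 cell. Among members, 84 carried 2 of them, 38 carried 3 and 21 carried all 4. Sfrp2 reached 20 CPM in 81.8% of members, Susd5 in 74.1%, Efhd1 in 62.9% (90 cells) and Sost in 37.1% (53 cells), and Sost had no count in 80. The most frequent pairs were Sfrp2 with Susd5 (32 cells) and Efhd1 with Sfrp2 (27 cells), while Efhd1 with Sost alone was seen in 1 cell. The combination of all 4 was found in 4 cells of male 1, 12 of male 2 and 5 of the female. These values chose the cells and are a description.

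Over the members of each mouse, Sfrp2 had a median of 540.3, 475.3 and 429.5 CPM. Susd5 had medians of 336.8, 185.1 and 503.6 CPM, and Efhd1 had medians of 292.1, 220.4 and 278.8 CPM. The median of Sost was 0, 4.63 and 0.888 CPM, with single cells reaching 1659 CPM. Sost was thus the rarest of the 4 genes in each mouse. In the cells under the Myh11 threshold, pooled levels were 2.79 CPM for Efhd1, 19.3 for Sfrp2, 0.0634 for Sost and 0.451 for Susd5.

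**Figure D1:**
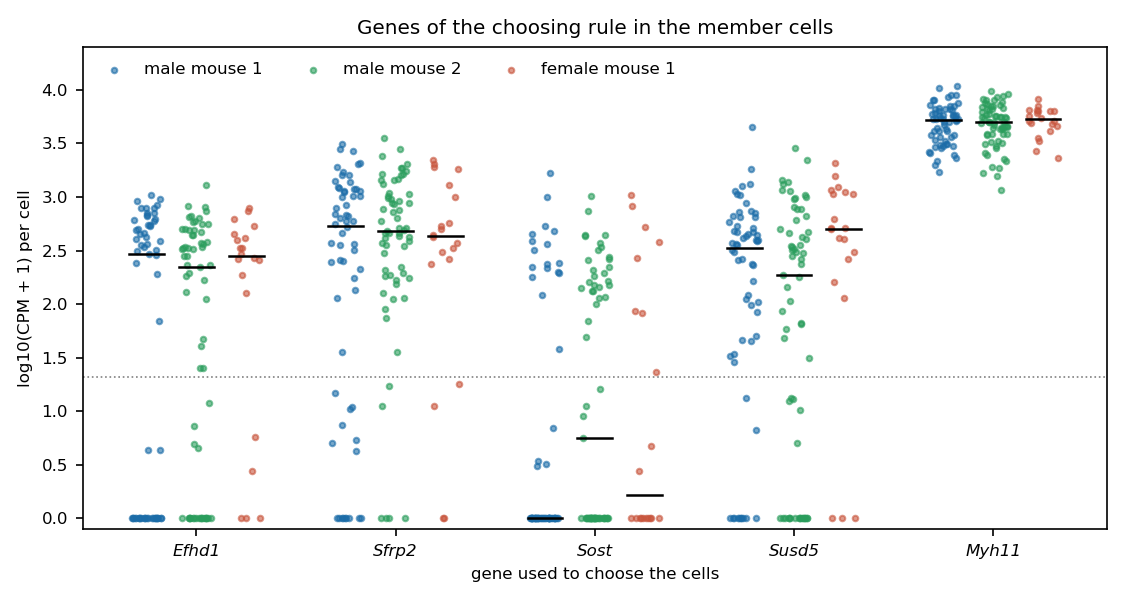
Each point is 1 member cell, coloured by mouse, with log10(CPM + 1) of each choosing gene on the vertical axis, a bar at each median and a dotted line at the threshold of 20 CPM. Myh11 lies above 1154 CPM in each member, while 80 members sit at 0 for Sost.

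Each choosing gene was also looked at in cells picked by at least 2 of the other 3, so that its own level did not choose them. Held out in this way, Sost averaged 71.5 CPM in the picked cells of male 1 against 14.7 in the rest of its Myh11 cells and 122.6 against 15.6 in male 2, and the rest of the female's cells were at 3.98 CPM. The log2 ratios in the same order were 2.28, 2.97 and 5.11 for Sost, and 2.41, 2.43 and 3.94 for Efhd1. They were 2.59, 1.76 and 3.11 for Sfrp2 and 2.37, 1.86 and 4.60 for Susd5. All 4 genes were higher in the picked cells of each of the 3 mice, but the genes were proposed together from these cells, so no test was made.

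The threshold cut through few cells. The second-highest choosing gene of the 5 members nearest the threshold was at 24.2, 28.1, 30.3, 31.5 and 32.9 CPM, and that of the 5 nearest cells outside at 17.8, 17.6, 17.4, 17.3 and 14.8 CPM. It lay below 40 CPM in 7 members and from 10 to 20 CPM in 19 other Myh11 cells. No cell with 2 of the genes was lost to the Myh11 threshold.

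The share of Myh11 cells that were members was 13.5% in male 1 (95% Clopper-Pearson limits 10.4% and 17%), 29.4% in male 2 (23.4% and 36%) and 11.8% in the female (7.38% and 17.7%). Plates 045s and 046s of male 1 gave 16.4% (12% to 21.6%) and 9.69% (5.94% to 14.7%). The intervals cover counting error only, and shares depend on the gate, so no test of them was made. A second muscle signature overlapped this one: 50 members (35%) also had 2 or more of P2rx1, Stac and Kcna5 at 20 CPM, as had 31% of the other Myh11 cells. These pooled shares hide a difference between mice. That overlap was 30% and 30.2% of members in the 2 males and 65% in the female. In the other Myh11 cells it was 32.6%, 42.4% and 15.4%, so members had it less often in the males and more often in the female.

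Depth per cell followed the mouse more than the kind of cell. Members had median counts of 296734, 149000 and 245717 per cell, and the other Myh11 cells 270940, 144233 and 247795. Median genes per cell were 4594, 4454 and 5026 against 4222, 3991 and 4761, so somewhat more genes were detected in members of each mouse. Immediate early genes respond to handling. Summed with heat shock genes, they had medians of 19998, 12258 and 10636 CPM in members and 20808, 15217 and 14524 CPM in the others. At least 2 genes from the joined endothelial, immune and epithelial marker lists reached 20 CPM in 34.3% of members and 27.6% of the others. The genes so counted could be of the same kind. No doublet caller was run.

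The muscle genes were expressed in members, at a summed level above that of the other Myh11 cells in each mouse. The summed level of 8 SMC genes (Acta2, Myh11, Tagln, Cnn1, Actg2, Des, Smtn and Lmod1) was 22568, 27267 and 23686 CPM in members of the 3 mice against 18260, 23138 and 16154 CPM in the other Myh11 cells. Not each gene followed the sum: Des was at 1837 CPM in members of male 2 and 2654 CPM in its other Myh11 cells. The sum includes Myh11, a gene of the rule, at 4880, 5209 and 5110 CPM in members against 3721, 3644 and 3193 CPM. In P2rx1-Stac-Kcna5 cells the 8 genes summed to 20991, 27081 and 22818 CPM, nearer to the members. The 6 vascular mural markers summed to 2054, 2150 and 3819 CPM in members, below the 2514, 3474 and 4858 CPM of the others and the 3260, 4570 and 5411 CPM of P2rx1-Stac-Kcna5 cells. Of these markers, the Notch target Heyl pooled to 759 CPM in members and 752.7 CPM in the others, and Mcam to 799.5 against 702.1 CPM. Notch3, a Notch receptor of arterial SMC, was at 320 against 653.1 CPM, and the connexin gene Gja4 at 3.53 against 100.4 CPM. Hey2, a Notch target, was at 100.2 against 74.7 CPM. The vascular list was thus expressed in members but lower in sum than in the other Myh11 cells of each mouse, so it does not set them apart as vascular, and the position of the cells in the tissue was not measured.

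Markers listed for other cell types differed gene by gene. The airway SMC list summed to 423.6 CPM in members and 1124 CPM in the others, pooled over mice. The airway SMC genes Hhip, Sbspon and Chrm3 were at 4.97, 0.258 and 0 CPM, whereas Lgr6, a receptor for R-spondins listed with airway muscle, was at 390.9 CPM in members and 159.7 CPM in the others and reached 20 CPM in 76.9% of members. The 6 pericyte markers summed to 1240, 1245 and 1324 CPM in members and 1461, 1579 and 2299 CPM in the others, of which Postn, a matrix protein, gave 980.2 CPM of the pooled 1255 CPM in members and Higd1b and Trpc6 gave 0.574 and 0.718 CPM. The 9 fibroblast markers summed to 517.6, 753.9 and 847.1 CPM in members and 655.3, 982.4 and 1135 CPM in the others. Npnt, a matrix ligand of integrins, gave 536.3 CPM of the pooled 641.8 CPM in members, and Dcn and Lum 7.9 and 2.56 CPM. The 5 alveolar myofibroblast markers summed to 1218, 1101 and 569.5 CPM in members and 1805, 2081 and 1422 CPM in the others, with Mustn1 at 736.8 and Aspn at 273.3 CPM in members and Lgr5 and Pappa2 at 0.373 and 0.258 CPM. The part of such cells in the results was not tested. Endothelial Pecam1 was at 67.5 CPM in members and 21.9 CPM in the others, with 30.8% of members (44 cells) at 20 CPM or more, while Cdh5 and Tie1 were at 0.402 and 0.747 CPM. The 6 markers of endothelium summed to between 57.9 and 136.9 CPM in members and between 73.1 and 90.9 CPM in the others. Immune Ptprc (0.0862 CPM), epithelial Epcam (0.115 CPM) and the 3 cycling genes (0.345 CPM in all) were near 0. Pooled over mice, the whole immune list summed to 24.8 CPM in members and 61 CPM in the others. The whole epithelial list summed to 38.1 and 74.1 CPM. The 7 cardiac muscle markers summed to 3366 CPM in members and 2704 CPM in the others, of which the actin gene Actc1 gave 3311 and 2605 CPM, while in members Nppa was at 0 and Myh6 at 0.0862 CPM.

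Against the other Myh11 cells, single genes of several lists were called higher or lower. The elastic fibre gene Fbln5 averaged 709 CPM in members and 122.9 CPM in the others, and the smoothelin gene Smtn 2097 and 1046 CPM. Hhip, an inhibitor of hedgehog ligands, averaged 6.48 CPM against 739.7 CPM, and the sphingosine 1-phosphate receptor gene S1pr3 4.68 CPM against 438.8 CPM. edgeR's quasi-likelihood test on counts summed per mouse, with the mouse as a block, called 62 of 15294 genes at an adjusted p under 0.05 (0.405% of genes tested). Of these, 22 were higher in members (0.144%) and 40 lower (0.262%), 1753 genes had an unadjusted p under 0.05 (11.5%), and the median log2 fold change of all genes was -0.09. Both sums of a mouse come from the same animal, the 3 mice are the replicates, and levels below are TMM-scaled CPM with SD over them unless called pooled.

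Genes for secreted proteins were among those called higher. Fbln5, which helps assemble elastic fibres, was at 361.8, 839.9 and 925.4 CPM in members and at 80.2, 124.4 and 163.9 CPM in the other cells. The lowest member value lay above the highest comparator value, and the log2 fold change was 2.47 ± 0.16 (SE; adjusted p = 0.031, edgeR). Smoc1, a secreted protein that binds calcium and restrains BMP signals, was at 461.8, 709.8 and 755.8 CPM in members, and members and others averaged 642.5 ± 158.1 and 119.7 ± 32.9 CPM (SD, n = 3). Its log2 fold change was 2.42 ± 0.22 (adjusted p = 0.0385, edgeR), higher in 3 of 3 mice. Htra3, a secreted serine protease, was at 610, 688.2 and 910.7 CPM against 147.8 and 233.2 CPM in the other cells of the males, a log2 fold change of 1.83 ± 0.15 (adjusted p = 0.0322, edgeR). Neither gene's groups overlapped, as was the case for 14.7% of all genes tested in 1 direction or the other. Fbln5 reached 20 CPM in 62.9% of members and 15.3% of other cells, and Smoc1 in 74.1% and 22.9%.

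Col15a1, a collagen of the basement membrane zone, shows how much a mean can rest on 1 mouse. It was at 30.3, 52.8 and 422.9 CPM in members and 3.72, 12 and 54.7 CPM in the others, so it was higher within each mouse although the groups overlapped (log2 fold change 2.71 ± 0.28, adjusted p = 0.0461, edgeR). Cyb561, a cytochrome of electron transport, likewise peaked in the female (61.7, 74.4 and 297.8 CPM in members; adjusted p = 0.0458, edgeR). The lipid-binding gene Osbpl3, the immune-inhibitory surface gene Cd200 and the membrane gene Tm4sf1 rose by log2 fold changes of 3.17, 1.98 and 1.5. Tm4sf1 was the most widespread of these, at 20 CPM or more in 95.8% of members and 63.8% of other cells.

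Some calls share bases with another gene, and the sources used here do not state how strand was treated. Gm26771 had the largest log2 fold change of the named genes called higher (3.68 ± 0.29, adjusted p = 0.0322, edgeR), but its antisense gene body overlaps Sfrp2, so its reads cannot be told from those of a choosing gene. E030013I19Rik (log2 fold change 1.95) overlaps Itga8 on the other strand by 977 bases. Lrrc17 (1.84), a secreted leucine-rich protein, lies within Fbxl13 on the opposite strand, and Fgl2 (1.76), a fibrinogen-like protein, within Ccdc146. Smtn, also called higher, shares 6700 bases with Gm11946 on the other strand. Genes called lower have this limit too. S1pr3 shares 10048 bases with Gm32834, Ptger2 lies within Gm17173 and Fgf7 within Fam227b, each on the opposite strand. Called genes that were higher and fell outside the naming rule included Fblim1, Gpc6, Cped1, Tcap, Ptgis and Cav1.

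Of the contractile genes, 1 passed the test. Of 25 contractile genes tested, 24 had a positive log2 fold change, with a median of 0.44 against -0.09 over all genes. An unadjusted p under 0.05 (edgeR) was found for 19 of them and for 11.5% of all genes tested. Smtn, which binds actin in contractile SMC, was at 1617, 2066 and 2609 CPM in members and 765.7, 1078 and 1295 CPM in the others (log2 fold change 1.01 ± 0.088, adjusted p = 0.0385, edgeR). All 3 members' values lay above all 3 comparators' values. Acta2 was at 7767 ± 2569 CPM against 5891 ± 2303 CPM (log2 fold change 0.42, adjusted p = 0.13, edgeR) and the filamin gene Flna at 5463 ± 1185 against 3596 ± 766.7 CPM (0.6, adjusted p = 0.111, edgeR). Neither of these passed the threshold.

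Adhesion and region genes were called singly. Itga8, an integrin subunit of smooth muscle, was at 1135, 2933 and 932.6 CPM in members and 514.6, 964.4 and 289.7 CPM in the others (log2 fold change 1.48 ± 0.14, adjusted p = 0.0387, edgeR). It was higher in members of each mouse, but the groups overlapped because male 2 was high in both. Of 13 integrin genes tested, 12 had a positive log2 fold change (median 0.84) and Itga8 alone was called. Osr1, a zinc-finger transcription factor of the lung mesenchyme, varied little among members (502.3, 545.6 and 563.8 CPM) and lay at 187.3, 240.5 and 218.2 CPM in the others (log2 fold change 1.32 ± 0.13, adjusted p = 0.0421, edgeR).

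**Figure D2:**
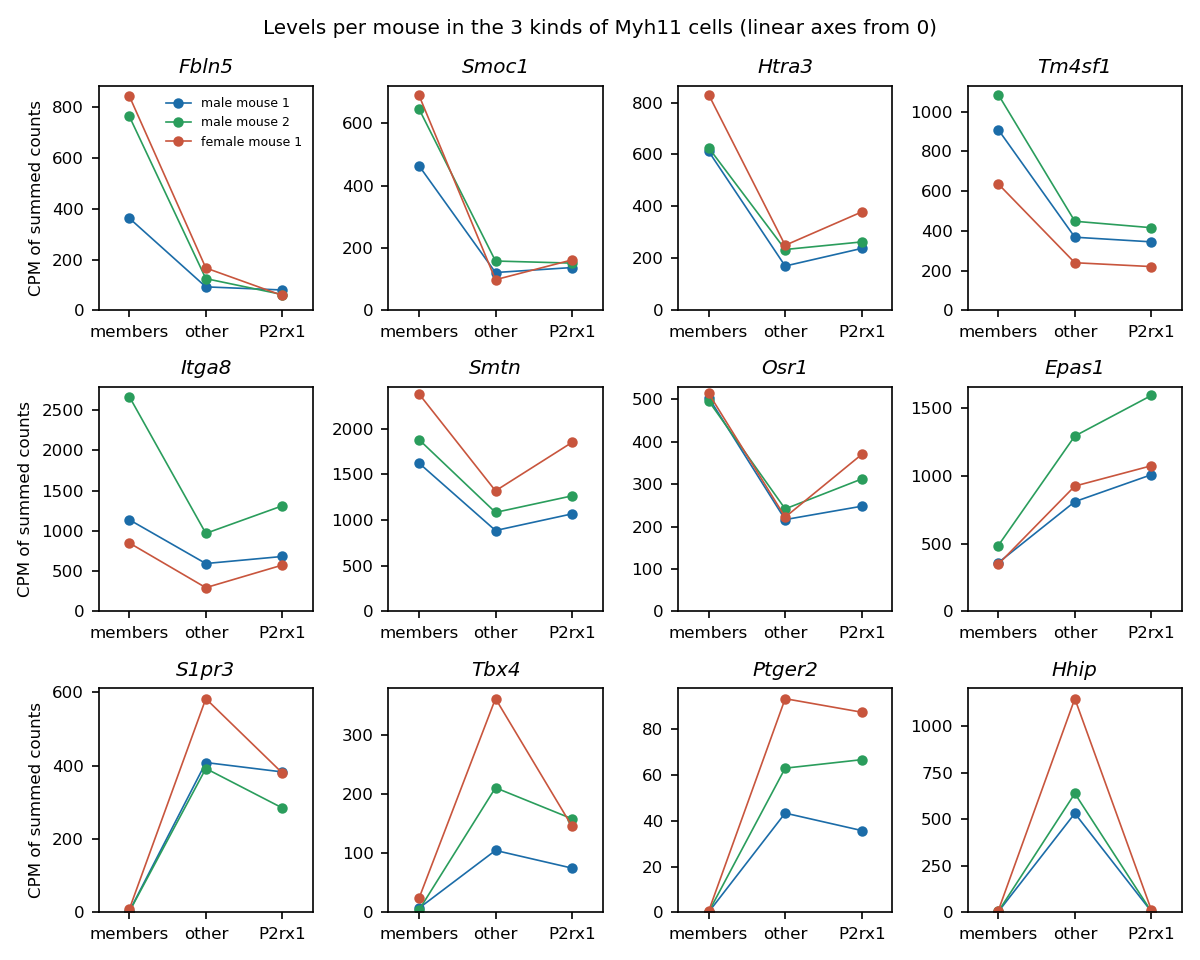
CPM of counts summed per mouse, without TMM scaling, in members, other Myh11 cells and P2rx1-Stac-Kcna5 cells for 12 genes, with 1 line per mouse and a linear axis from 0. Fbln5, Smoc1, Htra3, Tm4sf1, Itga8, Smtn and Osr1 were highest in members of each mouse, Epas1 was lowest there, and Hhip was low in members and P2rx1-Stac-Kcna5 cells alike.

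Many of the named genes called lower had few counts in members. Hhip was at 3.55, 5.49 and 10.4 CPM in members and 459.4, 634.3 and 1125 CPM in the others, a log2 fold change of -6.88 ± 0.17 (adjusted p = 0.000986, edgeR). S1pr3 was at 2.75, 1.83 and 9.44 CPM against 353.7, 390.4 and 572.4 CPM (-6.84 ± 0.42, adjusted p = 0.031, edgeR). The level of the highest mouse among members lay far below the lowest comparator for both genes. S1pr3 reached 20 CPM in 4.9% of members (7 cells) and 42% of other cells. Hhip and S1pr3 were the only 2 of the 62 called genes that were also called whichever of the 3 mice was left out.

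Calls lower included 2 of 36 vasoactive receptors and 2 of 39 growth factors and receptors. They also included 2 of 31 genes of the BMP and TGF-beta pathway and 1 of 29 Wnt ligands, receptors and targets. Over all genes tested, 0.262% were called lower. Ptger2, a receptor for prostaglandin E2, had 7 counts over all members and 10227 over the other cells. That is 0.296 ± 0.241 against 63.8 ± 27 TMM-scaled CPM (adjusted p = 0.0322, edgeR). For Ptger2, 0 members and 12.8% of other cells reached 20 CPM. Wnt5a, a Wnt ligand, was at 0.994 ± 0.621 against 75.9 ± 29.3 CPM (adjusted p = 0.0322, edgeR). The growth factor genes Igf1 and Fgf7 averaged 1.25 and 0.833 CPM in members against 94 and 55.5 CPM in the others. Some of these genes were low in P2rx1-Stac-Kcna5 cells too. There Igf1 averaged 2.01 CPM, Wnt5a 3.94 CPM and Fgf7 6.34 CPM, whereas Ptger2 averaged 64.2 CPM and Bmp5 25.5 CPM. Bmp5, a BMP ligand, was at 3.89 ± 2.51 against 113.3 ± 33.2 CPM (log2 fold change -5 ± 0.5, adjusted p = 0.0427, edgeR). Agt, which encodes angiotensinogen, had 6 counts in members. Pnmt, the enzyme that makes adrenaline from noradrenaline, had 1 count in members and 6786 in the other cells. A minority of the other cells carried these genes: 7% reached 20 CPM for Pnmt, 6.56% for Agt and 11.1% for Wnt5a. Among P2rx1-Stac-Kcna5 cells 0% did so for Agt and 4.69% for Pnmt.

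Adhesion, matrix and transcription factor genes were among the lower set too. The tight junction gene Cldn1 and the thrombospondin-repeat gene Sbspon had 6 and 9 counts in all members. Icam1, an adhesion receptor for leukocytes, was at 1.17 ± 1.28 against 80.2 ± 22.5 CPM, and the collagen genes Col8a1 and Col12a1 averaged 1.31 and 0.475 CPM against 108.4 and 50.4 CPM. Lhfpl2 and Scube1 averaged 0.745 and 0.367 CPM in members against 111.5 and 49.5 CPM. They reached 20 CPM in 10.6% and 6.71% of other cells. In P2rx1-Stac-Kcna5 cells, Lhfpl2 was at 0.385, 1.15 and 0.908 CPM and Scube1 at 6.13, 0.105 and 0.908 CPM without TMM scaling. Col12a1, Col8a1 and Icam1 averaged 2.79, 14.9 and 32.5 CPM there. Tbx4, a transcription factor of lung mesenchyme, was at 7.1, 4.31 and 25.9 CPM in members and 90.6, 209.4 and 354.5 CPM in the others (log2 fold change -4.3 ± 0.47, adjusted p = 0.0484, edgeR). The proteoglycan gene Dcn fell by 4 on the log2 scale (± 0.45, adjusted p = 0.0487, edgeR).

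Epas1, Serping1 and Chrdl1 were lower but still expressed. Epas1, the hypoxia-inducible factor 2 alpha of vascular cells, was at 357.4, 533.3 and 381.1 CPM in members and 699.7, 1285 and 906.4 CPM in the others (log2 fold change -1.16 ± 0.12, adjusted p = 0.0458, edgeR). The complement inhibitor gene Serping1 was at 384.2 ± 78.1 against 827.6 ± 158.2 CPM (-1.11 ± 0.12, adjusted p = 0.0484, edgeR). Against P2rx1-Stac-Kcna5 cells the gap in Serping1 was small, at 368.9 ± 81.9 against 446.4 ± 69.5 CPM (-0.29 ± 0.13, adjusted p = 0.856, edgeR). Chrdl1, a secreted BMP antagonist, was at 23.8 ± 4.55 against 119.4 ± 26.8 CPM (-2.32 ± 0.25, adjusted p = 0.0481, edgeR), so it and the BMP-restraining Smoc1 moved in opposite directions.

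These calls depend on the mice and on the comparator. Leaving out male 1, male 2 or the female gave 1, 0 and 10 genes called higher and 8, 8 and 20 lower by edgeR. With 0 called higher without male 2, 1679 genes still had an unadjusted p under 0.05. Leaving out plate 045s gave 0 and 1 (1383 unadjusted), and leaving out plate 046s gave 9 and 21. Without cells holding 2 or more endothelial, immune or epithelial markers, 7 were higher and 27 lower, and 5 and 25 of these were among the main calls. Against the other Myh11 cells with Notch3 at 20 CPM or more, 5 were higher and 9 lower, and 4 and 9 of these were main calls. The call for Hhip ended there (log2 fold change -1.79, adjusted p = 0.716, edgeR, in a range from 2.78e-191 to 0.716 over 17 alternatives), as Hhip is low in that comparator too. S1pr3 was still called in it (-6.53, adjusted p = 0.0454, edgeR, in a range from 1.15e-67 to 0.11 over the 17).

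In the pathways of the choosing genes, calls fell on single genes. Over all genes tested by edgeR, 0.405% were called and 11.5% had an unadjusted p under 0.05. Of 16 secreted Wnt antagonists listed, 5 were tested and 0 called by edgeR, all 5 with negative log2 fold changes (median -1.43) and 0 with an unadjusted p under 0.05. Igfbp4, on the same list, was at 411.4 ± 165.1 against 465.1 ± 177.2 CPM. Of 29 Wnt ligands, receptors and targets tested, 1 was called (Wnt5a, lower), 12 had an unadjusted p under 0.05 and the median was -1.62. Lgr6 was at 344.7 and 494.2 CPM in members of the males and 167.8 ± 56.1 CPM in the others, and missed the threshold (log2 fold change 1.42 ± 0.17, adjusted p = 0.0571, edgeR).

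The BMP and TGF-beta list had 2 lower calls (Bmp5 and Chrdl1) among 31 tested, with a median of 0.02. Of the 31, 12 had an unadjusted p under 0.05 (edgeR), against 11.5% of all genes tested. Among 12 Notch pathway genes none was called by edgeR and 4 had an unadjusted p under 0.05 (median -0.55). Notch3 varied by mouse, at 305.8, 199.8 and 663.7 CPM in members and 349.7, 496.3 and 1405 CPM in the others (log2 fold change -0.86 ± 0.24, adjusted p = 0.264, edgeR), and was lower in members of each. Heyl differed little (903.2 ± 314.5 against 824.1 ± 339.7 CPM, adjusted p = 0.707, edgeR).

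In the matrix lists, single genes were called, as were 0.405% of all genes tested. Of 17 elastic fibre genes, Fbln5 alone was called, 8 were positive and 9 negative, and the median was -0.01. Eln, the elastin gene, was at 673.4, 1221 and 3336 CPM in members and 441.1, 927.8 and 1912 CPM in the others (log2 fold change 0.6 ± 0.11, adjusted p = 0.141, edgeR). Eln thus spread more between mice than between the kinds of cell. Of 17 basement membrane genes, Col15a1 was called and the median was -0.27. Col18a1, a collagen of the same zone, was at 945.1, 1084 and 2292 CPM in members against 650 ± 216.9 CPM, without overlap (1.09 ± 0.14, adjusted p = 0.0603, edgeR). Fibrillar collagens and their binders had 1 lower call among 23 (Col12a1; median 0.04) and proteoglycans 1 lower among 14 (Dcn; median -0.63).

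Vessel tone genes were mostly uncalled. Of 36 vasoactive receptors tested, S1pr3 and Ptger2 were called lower, 26 had negative log2 fold changes and the median was -0.94. The endothelin receptor gene Ednra was at 438.7 ± 123.2 against 656.6 ± 174.6 CPM (adjusted p = 0.166, edgeR). P2rx1, an ATP-gated channel gene, was at 608.6, 461.7 and 1009 CPM in members and 427.7, 602.4 and 257.2 CPM in the others, so it was higher in 2 mice and lower in male 2 (adjusted p = 0.675, edgeR). No gene was called by edgeR among 17 potassium channels (5 at an unadjusted p under 0.05), 31 calcium handling genes (6) or 26 cyclic nucleotide genes (6). Of the 36 vasoactive receptors 14 were at such a p, as were 11.5% of all genes tested. The potassium channel genes Kcnh2 and Kcnmb1 were at 560.7 ± 259.7 and 465.1 ± 126.3 CPM in members, with log2 fold changes of 1.16 and 1.02 and no overlap between groups.

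Among regulators, the regional transcription factor list had 1 higher call (Osr1) and 2 lower (Epas1 and Tbx4) among 38 tested (median -0.69). Myocd, the coactivator of muscle genes, was at 651.7 ± 164.2 against 615.3 ± 201.5 CPM (adjusted p = 0.811, edgeR). Rgs2, which damps G protein signals, was at 358.9, 273.6 and 41.9 CPM in members and 701.2, 1022 and 516.3 CPM in the others (log2 fold change -2.13 ± 0.52, adjusted p = 0.226, edgeR). The 2 groups did not overlap for Rgs2, but the size of the gap differed between mice. Growth factors and receptors had 2 lower calls among 39 (Igf1 and Fgf7), and chemokine, cytokine and adhesion genes 2 among 31 (Icam1 and Serping1). Of 12 bone and mineral genes tested none was called by edgeR and 6 had an unadjusted p under 0.05. Among the 12, Mgp was at 1680 ± 755.3 against 1106 ± 294.1 CPM. Over all genes tested, 0.405% were called and 11.5% had an unadjusted p under 0.05.

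**Figure D3:**
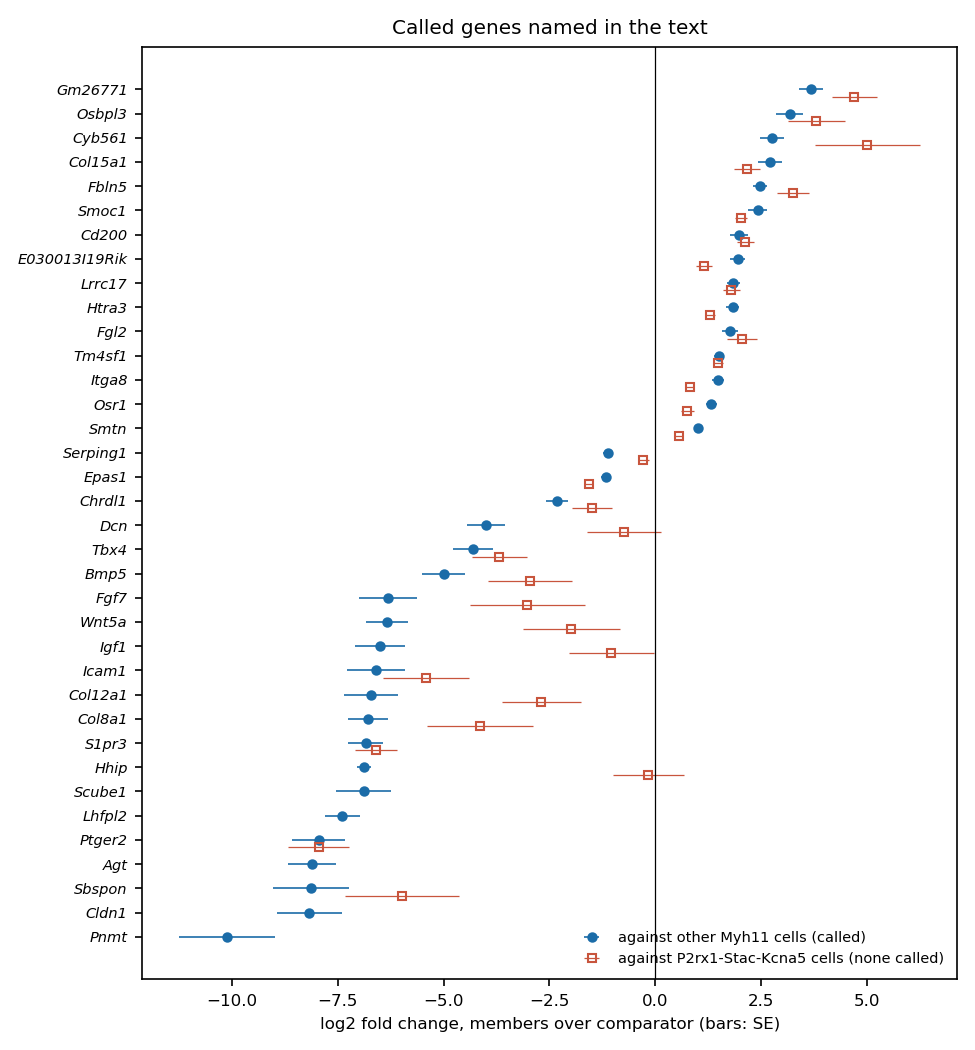
Log2 fold changes with SE (bars) of the 36 called genes named by the rule, for members over the other Myh11 cells (filled circles) and over the P2rx1-Stac-Kcna5 cells (open squares, where the gene was tested). Fbln5 lies at 2.47 and 3.25 and S1pr3 at -6.84 and -6.60, whereas Hhip lies at -6.88 and -0.17; members enter both comparisons and the P2rx1-Stac-Kcna5 cells are among the other Myh11 cells.

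Levels of many called genes differed with the number of choosing genes that a cell carried. Of 15 named genes called higher, all 15 were higher with 4 choosing genes than with 0, and 9 were higher at each step. Of 21 called lower, all 21 were lower with 4 than with 0, and 5 were lower at each step. These genes were called between the same cells, split at 2 choosing genes, so the direction from 0 to 4 was largely set by their selection. The 15 include Gm26771, which overlaps the choosing gene Sfrp2. Pooled over mice, Smtn was at 911.1, 1410, 1636, 1963 and 2434 CPM in Myh11 cells with 0, 1, 2, 3 and 4 of them (the last 3 with 84, 38 and 21 cells). Fbln5 went from 80.2 and 248.8 to 426.7, 610.5 and 1088 CPM and Itga8 from 472.8 and 989.3 to 1409, 1609 and 2008 CPM. Cells with 1 choosing gene, which the rule leaves outside, thus lay between those with none and the members for these genes. In the other direction, Epas1 was at 929.8, 786.1, 501.7 and 218.7 CPM with 0 to 3 of them and no lower with 4 than with 3, and Chrdl1 at 150.5, 109.1, 38.8, 2.82 and 1.09 CPM with 0 to 4. Notch3 was at 679, 550.4, 348.3, 366.4 and 99.4 CPM. Other genes broke the order too, such as Lrrc17 (331.7 CPM with 3 and 267.7 CPM with 4) and Osbpl3 (73.2 CPM with 2 and 45.7 CPM with 3). Hhip (842.6, 70.9 and 4.68 CPM with 0, 1 and 2) dropped before the threshold of the rule. Counts of cells are small at the upper end, with the female giving 5 cells with all 4, and the order was not kept in each mouse: Smoc1 in the female was highest with 2 genes. No test was made of these levels, since the choosing genes order the cells.

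**Figure D4:**
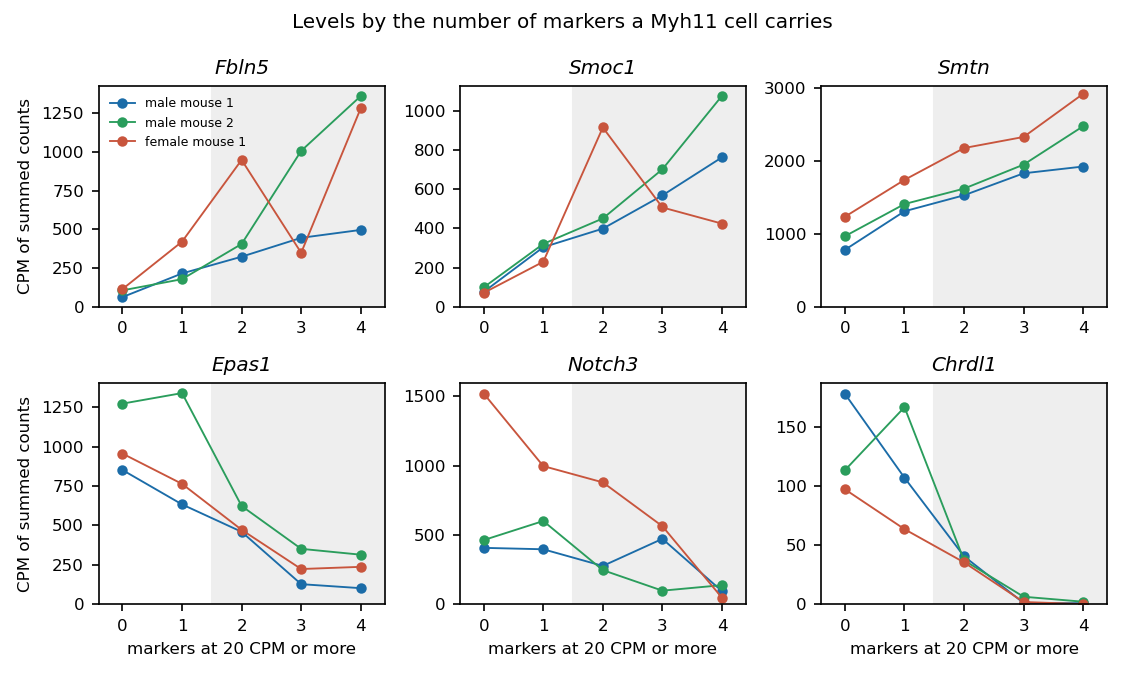
CPM of summed counts per mouse for 6 genes in Myh11 cells with 0 to 4 choosing genes at 20 CPM or more, with the members on a grey ground. Smtn is higher at each step in each mouse and Epas1 is lower with 4 choosing genes than with none in each mouse, while Fbln5 and Smoc1 of the female do not follow the number.

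Members were also compared with P2rx1-Stac-Kcna5 cells. Of 13314 genes tested, edgeR called 0 (0% of genes tested), while 819 had an unadjusted p under 0.05 (6.15%), and DESeq2 called 1.67% higher and 1.58% lower. On simulated data the same test recovered 29.2% of 4-fold changes, so 0 calls do not show that the cells are alike. The log2 fold change of Fbln5 was 3.25 here and 2.47 against the other Myh11 cells, and that of S1pr3 was -6.60 and -6.84. The genes with the lowest p, none of them called, are given as values. Cpe, a carboxypeptidase that processes prohormones, was at 1592, 1836 and 1300 CPM in members and 595.8, 675.5 and 479.5 CPM in the comparator (log2 fold change 1.43 ± 0.085, adjusted p = 0.0783, edgeR). Mfap4, a microfibril-associated protein, was at 427.9, 701 and 807.6 CPM against 108.4, 239.9 and 192.9 CPM (1.86 ± 0.16, adjusted p = 0.0884, edgeR). Members of each mouse lay above the comparator of each mouse for both genes, as in 9.63% of genes tested in 1 direction or the other. Serpine2, a protease inhibitor, had a log2 fold change of 1.14 ± 0.1, Smoc1 of 2.02 ± 0.14 and Tm4sf1 of 1.48 ± 0.11.

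On the lower side of that comparison, Epas1 was at 338.8, 505.7 and 372.7 CPM in members and 903.7, 1639 and 1130 CPM in P2rx1-Stac-Kcna5 cells (log2 fold change -1.57 ± 0.11, adjusted p = 0.0783, edgeR). S1pr3 was at 4.53 ± 4.1 against 345.8 ± 53.4 CPM and Ptger2 at 0.286 ± 0.238 against 64.2 ± 30.2 CPM, both without overlap. Adcy3, an adenylyl cyclase, was at 123.5, 87.7 and 329.6 CPM against 388.9, 402.4 and 1238 CPM (-1.92 ± 0.16, adjusted p = 0.0884, edgeR), and the tetraspanin gene Tspan18 had a log2 fold change of -2.69 ± 0.26. Hhip (6.24 ± 3.51 against 7.35 ± 5.23 CPM) and Dcn (11.4 ± 9.27 against 14.8 ± 1.68 CPM) were low in both kinds of cell. So were Igf1 (1.2 ± 1.04 against 2.01 ± 0.577 CPM) and Wnt5a (0.96 ± 0.618 against 3.94 ± 3.06 CPM). Smtn was at 2014 ± 511.6 against 1402 ± 502.1 CPM (0.55 ± 0.09, adjusted p = 0.263, edgeR). Of 25 contractile genes, 14 were positive in this comparison (median 0.07) and of 12 integrin genes all 12 were (median 0.32), with 0 called in either list by edgeR and 8 and 3 at an unadjusted p under 0.05. Leaving out the female gave 0 higher and 1 lower call, and leaving out either male mouse gave 0 of both.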

How the data were processed

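Single-cell RNA was measured in 1376 cells of 3 mice. Of 829 Myh11 cells, 143 were members and 386, 151 and 149 (male 1, male 2, female) were not, and 213 of the latter were P2rx1-Stac-Kcna5 cells. Values in the deposited table are raw counts of reads, whole numbers for each gene in each cell. Subread, featureCounts, Bowtie2, Bowtie and bcl2fastq are listed, without roles, in the submitters' processing notes. How strand and duplicates were treated is unstated in the sources used here. Of 46517 gene identifiers, 46005 took a symbol and coordinates from the GENCODE M21 annotation of GRCm38, and the rest held 0.184% of counts. PCR reads without molecular identifiers are not independent molecules, so intervals cover counting error only.

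Counts were summed per kind of cell and mouse (5805586 to 18814500 counts for members, 24269270 to 112888287 for the other Myh11 cells) and tested with edgeR 4.0.16 (glmQLFit and glmQLFTest, TMM factors, filterByExpr, mouse as block). Tests were two-sided, p-values were adjusted over all genes tested by the Benjamini-Hochberg method, and calls were made at an adjusted p under 0.05. The 5 genes of the rule, and 8 in the second comparison, stayed in the library sizes and out of the test. SE is the log2 fold change over the square root of F. The pairing comes from the mouse, from which both sums were taken; deviations of the 2 sums of a mouse from their group means correlated at 0.20 to 0.33 over genes in the first comparison and 0.16 to 0.25 in the second. The mice are the replicates, and with 1 lung each the p-values speak of these 3 mice.

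The genes named were, in each direction, the 12 with the largest change among those called, of the same sign in 3 mice and at 20 CPM or more in the higher group, every called gene of the lists, and, with under 5 calls in a direction, the 5 with the lowest p; in the first comparison also the 2 uncalled genes of each list with the highest level. In the second comparison the uncalled examples were left out and lists are given by counts. The cells, markers and lists were chosen with earlier results of these data known, so genes that vary with the markers across the same cells are no independent evidence of a cell type.

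Alternatives were DESeq2 1.42.0 (389 higher and 701 lower in the first comparison, 222 and 211 in the second), upper-quartile factors, no filter, no block, leaving out each mouse or plate, other thresholds of the rule, cells thinned to 100000 counts, limma 3.58.1 on log2(mean CPM + 1), cells with markers of other types left out, and 2 other comparators. Simulated data used each gene's mean over all sums and the dispersion trend fitted by edgeR, with no differences between mice, unlike the real data. On them edgeR recovered 9.09% of 2-fold and 35.4% of 4-fold changes in the first comparison (14887 genes). In the second it recovered 5.15% and 29.2% (12962 genes).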

Additional observations from a re-analysis of the deposited data

How the results depend on the processing

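With 3 mice the first comparison recovered few changes of 2-fold or 4-fold size in simulated data, so genes that were not called may still differ. The cause of each change below was not tested. The 22 genes called higher and 40 called lower in the first comparison are 0.144% and 0.262% of the genes tested. These shares were 2.54% and 4.58% with DESeq2, 0.195% and 0.313% with no filter (more genes tested, 56 and 90 called), 0.262% and 0.588% with limma on mean CPM, 0.296% and 0.437% without comparator cells carrying 1 choosing gene, 0.253% and 0.39% with cells thinned to 100000 counts, 0.111% and 0.163% with a marker threshold of 10 CPM, 0.0917% and 0.164% with one of 50 CPM, 0% and 0.0271% with 3 of 4 markers, 0.0488% and 0.188% without cells holding markers of other types, 0.034% and 0.0613% against Notch3 cells, 0% and 0.00683% without plate 045s and 0.0609% and 0.142% without plate 046s. Leaving out a mouse gave 0% to 0.0639% higher and 0.0486% to 0.128% lower. Without the replicate block, they were 0.0392% and 0.196% (6 and 30 genes, of which 2 and 23 were among the main calls); upper-quartile factors gave 0.137% and 0.34%. All 22 and 40 calls were among those of DESeq2. In the comparison with P2rx1-Stac-Kcna5 cells (0 and 0 by edgeR, 819 genes at an unadjusted p under 0.05), shares were 1.67% and 1.58% with DESeq2, 0.0671% and 0.0434% with no filter, 0.03% and 0.0225% with limma on mean CPM, 0.0161% and 0% with thinned cells, 0.00761% and 0.0228% without plate 046s, 0% and 0.015% without the replicate block, and 0% higher and 0% to 0.00698% lower on leaving out a mouse. With 3 of 4 markers required, the share of Myh11 cells that were members was 4.26% in male 1, 13.6% in male 2 and 6.51% in the female. None of the 62 genes called in the first comparison turned its direction in any of its 17 alternatives that tested the gene. Of the uncalled list genes, only the 2 of each list with the highest level were followed. Of those followed, 11 turned, with these log2 fold changes. Against Notch3 cells they were 0.22 for Dkk3, -0.21 for Heyl, -0.03 for Sparc and -0.02 for Sema5a, and with 3 of 4 markers 0.19 for Dkk3, -0.12 for Hoxb5 and -0.10 for Sema5a. With limma on mean CPM they were -0.01 for Heyl, -0.09 for Sparc, -0.03 for Atp2a2, -0.13 for Myocd, -0.12 for Hoxb5 and -0.05 for Fos. Upper-quartile factors gave -0.07 for Sparc, -0.01 for Myocd and -0.09 for Hoxb5, no filter -0.04 for Sparc and -0.06 for Hoxb5, and thinned cells -0.03 and -0.02. A marker threshold of 10 CPM gave 0.00 for Gucy1a1 and -0.10 for Hoxb5. Without plate 045s Sparc was at -0.04 and Hoxb5 at -0.15, without plate 046s Myocd at -0.00, without cells holding other markers Heyl at -0.03, and without comparator cells carrying 1 choosing gene Sparc at -0.04 and Hoxb5 at -0.02. Without the replicate block Slit3 was at 0.04. On leaving out a mouse, the value went from -0.01 to 0.02 for Sparc, -0.01 to 0.35 for Atp2a2, -0.01 to 1.19 for P2rx1, -0.00 to 0.09 for Myocd, -0.15 to 0.10 for Hoxb5 and -1.22 to 0.08 for Slit3.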
